A study of Homo sapiens with 24 samples.

Results

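ABCB1 and its neighbour ABCB4 were followed across Ramos, a cell line from human Burkitt's lymphoma, and 5 derivatives selected stepwise for growth in doxorubicin. These are 2 of the 20046 genes named in the annotation of the bead array, and every probe annotated to either was taken, 3 of 47323 probes in all. ABCB1 had 2 probes, ILMN_1812070 and ILMN_2094875, and ABCB4 had 1, ILMN_1767349. Ramos grew without drug, Dox100 was raised from Ramos in 100 nM doxorubicin, Dox250 from Dox100 in 250 nM, Dox500 from Dox250 in 500 nM, Dox750 from Dox500 in 750 nM and Dox1000 from Dox750 in 1000 nM. Every line shares the Ramos background, and each resistant line was harvested in the drug that it tolerates, so the effect of having been selected and that of the drug in the medium cannot be told apart. Each line was measured on 4 arrays, 1 for each of 4 cultures split from a single culture, which the submitters call technical replicates. The p-values below therefore measure the spread between split cultures, which may be technical, and each line stands for 1 selection.

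ABCB1 encodes P-glycoprotein, a pump of the plasma membrane that uses ATP to drive anthracyclines, vinca alkaloids and taxanes out of the cell, and that is known for multidrug resistance in leukaemia and lymphoma. ABCB4 encodes a close relative that moves phosphatidylcholine to the outer leaflet of the membrane, a step of bile formation in the liver. The genes stand side by side on chromosome 7, with no other protein-coding gene between them in the order of the RefSeq annotation (GRCh38.p14). In that annotation RUNDC3B overlaps ABCB1 and CROT overlaps ABCB4.

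RefSeq lists 2 starts for ABCB1, which lie 112411 bases apart, and the table of start windows used here holds none for ABCB4. The windows are shown because ABCB1 is the gene that was undetected in Ramos and abundant in the later lines. Each runs from 250 bases before the start to 50 after it, on the minus strand, 5′ to 3′. The upstream window is chr7:87713246-87713545 and the downstream one chr7:87600835-87601134, both in GRCh38.p14. Capitals mark matches, on either strand, to the CCAAT box (letters CCAAT), the GC box (GGGCGG), the EGR1 box (GCGTGGGC), the TATA box (TATAAA) or an E box (CACGTG), with no overlap among the matches found.
ABCB1 upstream start: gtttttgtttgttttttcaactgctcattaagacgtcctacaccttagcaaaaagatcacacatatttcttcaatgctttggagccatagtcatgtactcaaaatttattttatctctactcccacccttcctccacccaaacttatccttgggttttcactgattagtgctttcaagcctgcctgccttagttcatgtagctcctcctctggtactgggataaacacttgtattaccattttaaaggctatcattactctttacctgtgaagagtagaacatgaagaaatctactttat
ABCB1 downstream start: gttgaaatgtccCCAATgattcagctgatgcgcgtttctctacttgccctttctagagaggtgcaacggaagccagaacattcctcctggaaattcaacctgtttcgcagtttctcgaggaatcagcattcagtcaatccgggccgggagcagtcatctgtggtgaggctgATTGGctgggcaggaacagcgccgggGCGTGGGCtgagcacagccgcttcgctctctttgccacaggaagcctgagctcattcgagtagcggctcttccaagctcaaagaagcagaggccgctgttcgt
The upstream window held none of the 5 motifs and 1 CG dinucleotide, against a median of 14 over the 35116 windows of the table. The downstream window held 16 CG dinucleotides. It held CCAAT beginning at base -238, the same motif on the other strand at base -79 (the inverted CCAAT box of the ABCB1 promoter, bound by NF-Y) and GCGTGGGC at base -53 (the core of an EGR1 site), counted from the start. CCAAT occurred in 34.6% of all windows and GCGTGGGC in 2.09%. The GC box, TATA box and E box, with no match in either ABCB1 window, occurred in 45%, 11.5% and 7.26%. A match is a description of letters, and the probes do not show which start was used in any line.

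The arrays were alike in depth. Between 14158 and 15564 probes were detected on each, at a detection p under 0.01, and the median signal of an array lay between 121.1 and 163.4. Of 6 B cell markers measured, 5 (CD79A, CD79B, MS4A1, CD22 and CD74) were detected on at least 3 of 4 arrays in every line, and PAX5 was not detected to that extent in any. Of the markers of other cell types, at most 1 of 7 for T and NK cells, 0 of 5 for myeloid cells, at most 1 of 6 for hepatocytes and at most 1 of 7 for epithelial and stromal cells were detected in a line. The summed normalized signal of the kept T and NK cell markers was 106.3 to 142.2 in Dox1000 and 47.9 to 53.0 in Ramos, and that of the hepatocyte markers was 36.7 to 78.0 in Dox1000 and 56.2 to 83.1 in Ramos. For epithelial and stromal markers, of which DCN was detected from Dox500 on, it was 151.3 to 189.2 in Dox1000 and 23.6 to 24.1 in Ramos. The B cell sum was 39345 to 43070 in Dox1000 and 31880 to 33817 in Ramos. The part of these other markers in the results was not tested.

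ABCB1 was undetected in Ramos, detected on 1 array of Dox100, and abundant from Dox250 on. Its brighter probe read 161, 127.5, 151.5 and 142.5 signal units on the Ramos arrays, before any normalization, and was detected on 0 of 4. In Dox100 it read 145.1, 152.8, 189.1 and 143.2, and only replicate 3 (189.1) was detected. The mean signals of these lines were 0.937 times the median probe of the array in Ramos and 1.02 times in Dox100. Dox250 gave 833.1, 909.6, 889.6 and 881.5 units, with every array above every Ramos and Dox100 array. Dox500 gave 2662.5, 2137.6, 2557.6 and 2764.6 units. Dox750 gave 2441.9, 2263.8, 2150 and 3394.8 units, and Dox1000 gave 2865.1, 2352.1, 2932.5 and 2577.7. The arrays of the last 3 lines overlapped one another and all lay above Dox250. Bulk RNA does not show whether more cells carried the transcript or each cell carried more of it.

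The other ABCB1 probe was dimmer and showed the same division of the lines. It was detected on no array of Ramos (124.8 to 147.9 units) or Dox100 (126.9 to 143.1) and on every array of the later lines. Those read 303.7 to 319.1 units in Dox250, 648.4 to 1053.7 in Dox500, 679.5 to 1039.9 in Dox750 and 750.4 to 997.1 in Dox1000. The line means of the 2 ABCB1 probes on the normalized log2 scale had r = 0.994 over the 6 lines, as a description.

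**Figure D1:**
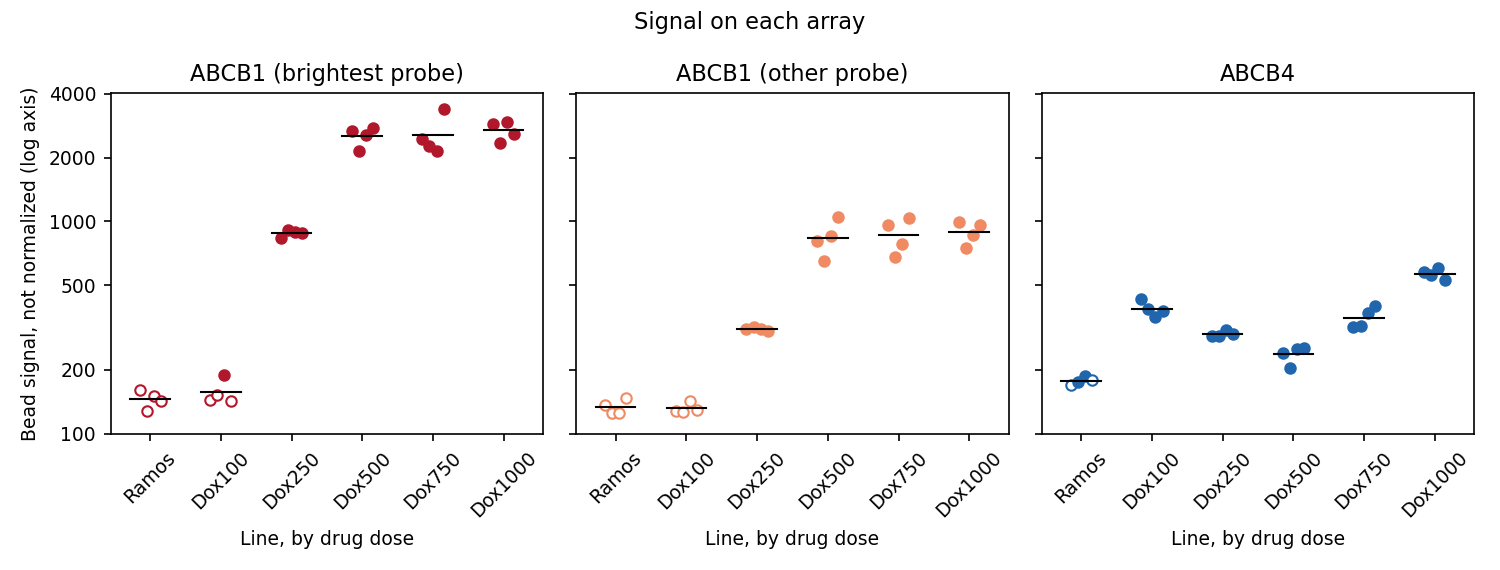
Bead signal before normalization (log axis) of both ABCB1 probes and the ABCB4 probe on each of the 24 arrays, with lines in order of drug dose; filled points were detected (p under 0.01), open points were not, and bars are the means of 4 arrays. The brighter ABCB1 probe stays at or below 189.1 units in Ramos and Dox100 and at or above 833.1 from Dox250 on, while ABCB4 is lowest in Ramos and highest in Dox1000.

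ABCB4 followed another course, with detection on every array from the first selection step, lower signals at the next steps and the highest at the end. It was at the edge of detection in Ramos, where 170.3, 175.6, 187.1 and 178.6 units were read and 2 of 4 arrays detected it. Dox100 gave 430.6, 385.3, 356.7 and 378.2 units, all above Ramos and all detected. Signals were lower in Dox250, at 287.6, 288, 308.9 and 294 units, and lower again in Dox500, at 241.3, 205.1, 250.8 and 253.7. Neither of these lines overlapped Dox100, Ramos or each other. How many of all probes lacked overlap between lines was not counted. Dox750 gave 317.5, 320.8, 371.7 and 401 units and Dox1000 gave 577.9, 557.8, 606.6 and 529.3. The Dox750 arrays overlapped those of Dox100, and the Dox1000 arrays lay above those of every other line.

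Changes were then fitted with limma on background-corrected, quantile-normalized log2 signals, over all 24 arrays and 15765 probes that passed a detection filter. Values are log2 changes ± SE with n = 4 arrays a line, and a probe passed at a Benjamini-Hochberg adjusted p under 0.05. The 3 probes entered the fit, the ABCB1 probes only because the later resistant lines detected them. For ABCB1 no count of calls and no p is therefore read against Ramos from Dox250 on. ABCB4 also met the filter only through resistant lines, as 2 of 4 Ramos arrays detected it. Its calls against Ramos are therefore given as a description, with no p. Of the 3, ABCB4 passed in Dox100, higher, where 43% of probes passed in either direction and 21% were higher. ABCB4 was also higher in Dox250 (46% passed, 22% higher), Dox500 (45.1%, 22.1%), Dox750 (49.1%, 24.1%) and Dox1000 (53.2%, 24.7%). So many probes passed that the call by itself sets ABCB4 little apart. The 5 comparisons share the Ramos arrays.

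Between signals near background, the brighter ABCB1 probe in Dox100 differed from Ramos by 0.31 ± 0.16 (95% interval -0.019 to 0.64, limma adjusted p = 0.121) and the other by -0.014 ± 0.10 (interval -0.22 to 0.19, adjusted p = 0.926). Neither difference passed. Without Dox100 replicate 3, its 1 array with a detected signal, the first value was 0.077, and without Ramos replicate 1 it was 0.43 and passed (adjusted p = 0.0395). ABCB1 had only a bound in Ramos, and its size above Ramos depends on the scale. As ratios of mean signal before background correction, the brighter probe was 6.03 times its Ramos level in Dox250, 17.4 times in Dox500, 17.6 times in Dox750 and 18.4 times in Dox1000. On the background-corrected scale, with Ramos set at the lowest detected signal, it was at least 16.3-fold higher in Dox250, 53.9-fold in Dox500, 50.3-fold in Dox750 and 55.5-fold in Dox1000, limits that hold for that scale only. For the other probe the ratios of mean signal were 2.33, 6.30, 6.48 and 6.69, and the limits on the corrected scale 4.0-fold, 16.1-fold, 15.5-fold and 16.3-fold.

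ABCB4 passed against Ramos in every resistant line, by 2.41 ± 0.13 in Dox100, 1.89 in Dox250, 1.46 in Dox500, 2.31 in Dox750 and 3.25 in Dox1000 (the same SE). These are 5.32, 3.71, 2.75, 4.95 and 9.54-fold on the fitted scale. The Ramos mean includes 2 arrays without detection. The size of all these changes depends on the background correction, which lowers dim signals. On the authors' deposited log2 values, which carry none, the brighter ABCB1 probe stood 4.27 above Ramos in Dox1000 against a fitted 6.66 here, and ABCB4 1.71 above Ramos against 3.25.

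**Figure D2:**
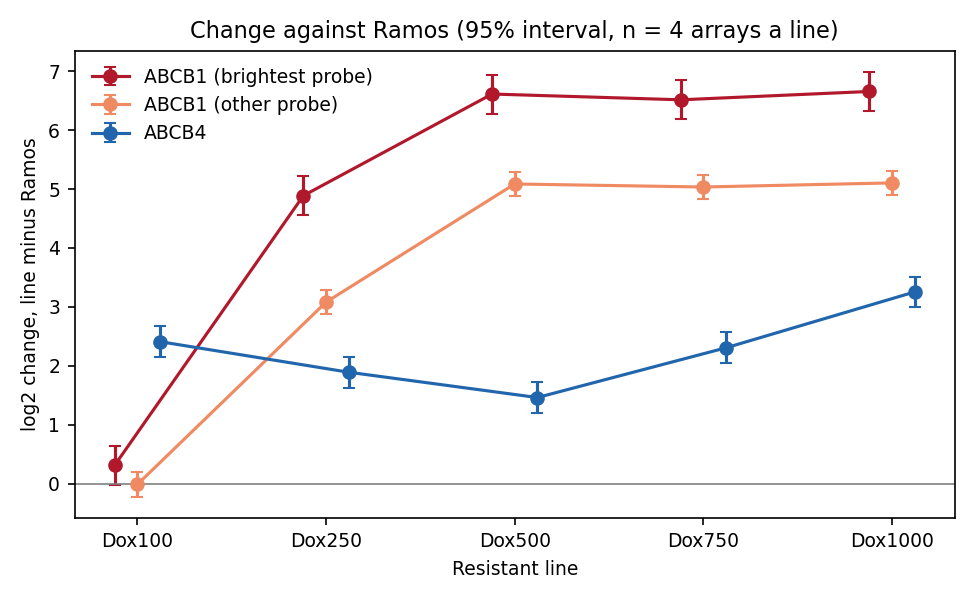
Fitted log2 change against Ramos of both ABCB1 probes and the ABCB4 probe in the 5 resistant lines; bars are 95% intervals from limma, n = 4 arrays a line. ABCB4 leads in Dox100 at 2.41, ABCB1 passes it in Dox250 and stays level from Dox500 on at a height that depends on the background correction (it was undetected in Ramos), and ABCB4 reaches 3.25 in Dox1000.

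Set step by step, ABCB1 gained in 2 of the 5 selection steps. For Dox250 against Dox100 the ABCB1 arrays did not overlap, a trait not counted over all probes. ABCB4 passed, lower, where 12.3% of all probes passed, 5.68% higher and 6.65% lower. The fitted difference of the brighter ABCB1 probe was 4.58, and 2.53 without background correction. As it was detected on 1 of 4 Dox100 arrays, its size is not fixed and no p is given. The ratio of mean signals was 5.58 for this probe and 2.36 for the other. For Dox500 against Dox250, where every array detected ABCB1, its probes were 1.73 ± 0.16 and 2.01 ± 0.10 higher (limma adjusted p = 1.03e-07 and 5.48e-12) and ABCB4 was lower, where 13.6% of probes passed, 6.57% higher and 6.99% lower. For Dox750 against Dox500 the ABCB4 probe alone passed, higher, where 7.54% passed and 3.69% were higher, and likewise for Dox1000 against Dox750, where 21.2% passed and 10.6% were higher. After that no ABCB1 difference passed. Dox750 stood -0.098 from Dox500 by the brighter probe (interval -0.43 to 0.23, adjusted p = 0.763) and -0.051 by the other (interval -0.26 to 0.15, adjusted p = 0.807). Dox1000 stood 0.14 from Dox750 (interval -0.19 to 0.47, adjusted p = 0.58) and 0.070 by the other probe (interval -0.14 to 0.28, adjusted p = 0.673). With 1000 against 500 nM drug, Dox1000 and Dox500 differed by 0.044 (interval -0.29 to 0.37, adjusted p = 0.866), and by 0.018 by the other probe (interval -0.19 to 0.22, adjusted p = 0.911). Of all probes 31.4% passed between these lines.

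ABCB4 moved at every step, and in the opposite direction to ABCB1 at the steps where ABCB1 gained. It fell by 0.52 ± 0.13 in Dox250 against Dox100 (limma adjusted p = 0.00868) and by 0.43 ± 0.13 in Dox500 against Dox250 (adjusted p = 0.0262). The second of these calls was lost without Dox250 replicate 3 or 4 or Dox500 replicate 1 or 4 (-0.40, -0.42, -0.35 and -0.42, adjusted p up to 0.0784). ABCB4 then rose by 0.84 ± 0.13 in Dox750 against Dox500 and by 0.95 ± 0.13 in Dox1000 against Dox750 (adjusted p = 0.00016 and 1.29e-05). On the deposited log2 values these 4 differences kept their calls and were smaller, at -0.32, -0.23, 0.48 and 0.67.

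**Figure D3:**
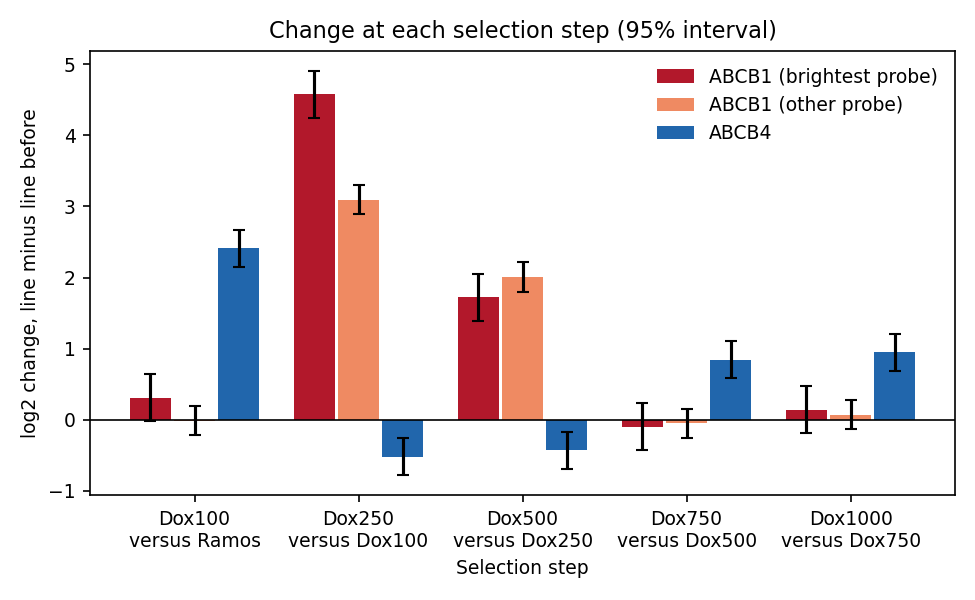
Fitted log2 change of each line against the line before it for both ABCB1 probes and the ABCB4 probe; error bars are 95% intervals from limma, n = 4 arrays a line. The ABCB1 bars are high at the Dox250 and Dox500 steps, where the ABCB4 bars lie below 0, and ABCB4 is higher at the first step and the last 2. The height of the ABCB1 bars at the Dox250 step depends on the background correction. In Dox100 the brighter probe was detected on 1 of 4 arrays and the other on 0.

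Whether the neighbours changed by unequal amounts was tested on the log2 difference between the brighter ABCB1 probe and the ABCB4 probe within each array. At the steps where every array detected both genes, ABCB1 changed by 2.16 more than ABCB4 in Dox500 against Dox250, by 0.94 less in Dox750 against Dox500 (-0.94) and by 0.81 less in Dox1000 against Dox750 (-0.81). The arrays of the lines compared did not overlap, and the exact two-sided permutation test gave p = 0.0286 for each, the smallest that 70 splits allow. The adjustment over 9 comparisons took in 6 that rest on ABCB1 near background, so its p is not read. Without background correction these values were 1.80, -0.58 and -0.54. The other 6 comparisons rest on ABCB1 near background, and their sizes moved with the scale. Dox100 against Ramos gave -2.10, Dox500 against Ramos 5.15 and Dox250 against Dox100 5.10, where -0.98, 3.67 and 2.85 were found without background correction. Over the 6 line means their r was 0.53, as a description. Whether a probe of one gene also binds transcripts of the other was not tested.

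The 2 ABCB1 probes can be set side by side only where both were detected. For Dox500 against Dox250 the change of the brighter probe was smaller than that of the other (-0.28), but without background correction the difference was 0.087. The exact permutation test gave p = 0.0286 for the first value, the smallest that 70 splits allow. No adjusted p is read, because the adjustment over 9 comparisons took in those with undetected ABCB1. Both probes put Dox250 below Dox500, Dox750 and Dox1000, and no difference among those later lines passed by either probe.

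The 6 lines can be put in order by the fitted level of each gene. For ABCB1, by the brighter probe, the order from low to high was Ramos, Dox100, Dox250, Dox750, Dox500 and Dox1000. Neighbours in that order differed only for Dox250 over Dox100 and Dox750 over Dox250 (1.63 ± 0.16, limma adjusted p = 5.66e-07). For ABCB4 it was Ramos, Dox500, Dox250, Dox750, Dox100 and Dox1000. Dox100 and Dox750 did not differ beyond their spread (Dox750 minus Dox100 -0.10 ± 0.13, adjusted p = 0.619, where 17.7% of probes passed). Dox750 over Dox250 passed narrowly (0.41 ± 0.13, adjusted p = 0.0489, where 6.89% of probes passed) and did not under 22 of 33 other settings. Dox1000 stood above Dox100 by 0.84 ± 0.13 (adjusted p = 2.03e-05, where 34.2% of probes passed).

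The genes whose line means most resembled ABCB1 were chosen by Pearson's r over the 6 lines, among 1460 genes whose line means spanned at least 1 on the log2 scale. The first was PHACTR3, a regulator of protein phosphatase 1 and actin, at r = 0.996. GAPT, a membrane adaptor of B cells, followed at 0.993, KIF5C, a kinesin motor, at 0.983, TSPAN13, a tetraspanin, at 0.979 and F12, coagulation factor XII, at 0.978. Against Ramos in Dox1000 TSPAN13 was 3.63 ± 0.11 higher and F12 0.80 ± 0.13. PHACTR3, GAPT and KIF5C were detected on no Ramos array, so no fold is given for them. The brighter ABCB1 probe was detected on 0 of 4 Ramos and 1 of 4 Dox100 arrays. These r values and their ranking therefore rest in part on signals near background. In all 18 genes had r over 0.95.

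For ABCB4 the closest were CDKN1B, the cyclin-dependent kinase inhibitor p27, at r = 0.997, HVCN1, a proton channel, at 0.994, and PLAAT4, a phospholipase and acyltransferase, at 0.992. PINK1, a mitochondrial kinase, came next at 0.989 and IL1B, the cytokine interleukin 1 beta, at 0.988. In Dox1000 against Ramos CDKN1B was 2.42 ± 0.10 higher and HVCN1 1.53 ± 0.11. PLAAT4 and IL1B were detected on no Ramos array and PINK1 on 1 of 4. In all 57 genes had r over 0.95. Likeness over 6 points is loose, and with the root mean square difference as the measure 2 of the 5 genes stayed among the first 5 for either target.

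**Figure D4:**
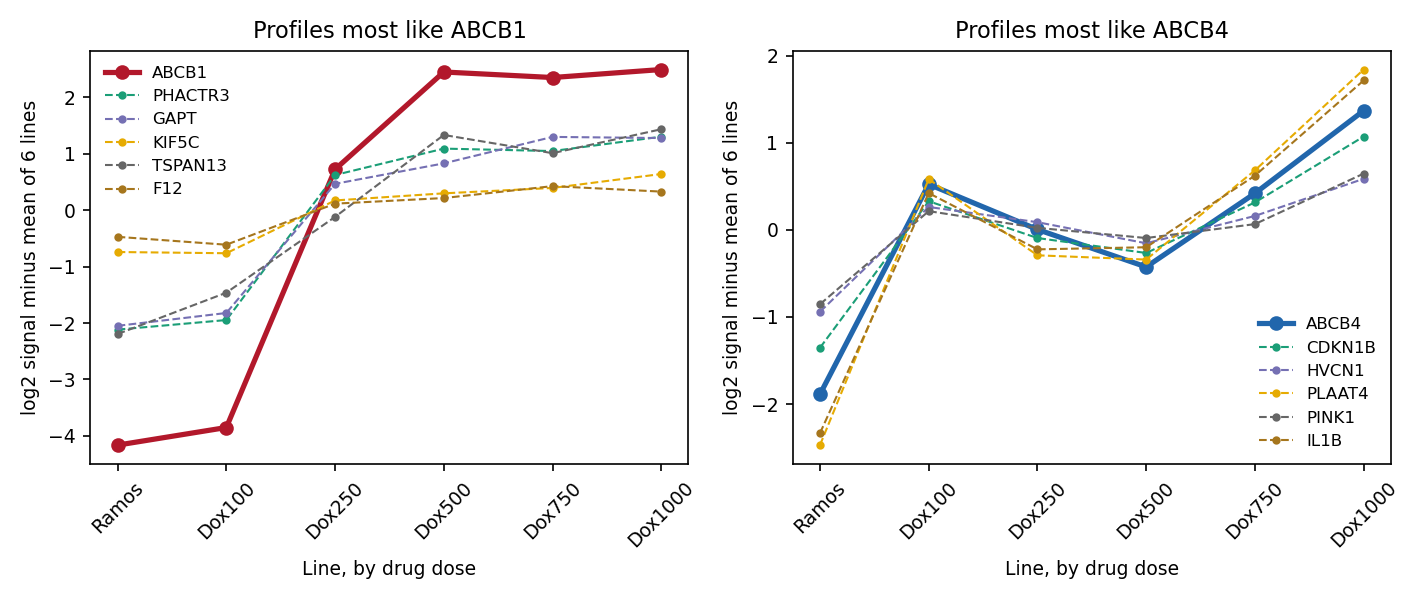
Line means of normalized log2 signal, each centred on its mean over the 6 lines, for ABCB1 (left) and ABCB4 (right) as thick lines and the 5 most similar genes of each as dashed lines. The genes like ABCB1 are low in Ramos and Dox100 and higher from Dox250 on, and those like ABCB4 dip between Dox100 and Dox1000. Not all of the genes like ABCB1 level off from Dox500 on, as GAPT stands at 7.54 in Dox500 and 8.01 in Dox750 before centring.

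The ABCB subfamily holds transporters of several membranes, and 8 of its 10 members measured here were kept. Against Ramos in Dox1000 5 of the 8 were higher and 1 was lower, against 27.6% higher and 29.7% lower among 9533 genes, and the median change was 0.67 against -0.016. ABCB1 and ABCB4 are 2 of the 5, were kept only through resistant lines and enter the median. The count and median are therefore not read as a result about the subfamily. ABCB9, a lysosomal peptide transporter, was 3.73 ± 0.10 higher, and stood at 3.71 ± 0.10 in Dox100, where ABCB1 was detected on 1 of 4 arrays. TAP1, which with TAP2 carries peptides to MHC class I in the endoplasmic reticulum, was 0.85 ± 0.08 higher, and ABCB6, a porphyrin transporter, 0.50 ± 0.09. ABCB8, of the mitochondrial inner membrane, fell by 0.98 ± 0.15 and was detected on 1 of 4 Dox1000 arrays. TAP2 and the mitochondrial ABCB10 did not pass (-0.0099 and 0.20). ABCB5 and ABCB11, the bile salt export pump, were detected on none of the 24 arrays.

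In Dox100 against Ramos, where ABCB4 was higher, TAP1 was 0.98 ± 0.08 higher (limma adjusted p = 2.11e-09). TAP1 also passed in the same direction as ABCB4 at the Dox250, Dox500 and Dox750 steps. It differed by -0.45 ± 0.08, -0.52 ± 0.08 and 0.73 ± 0.08 at these steps (limma adjusted p = 0.00102, 0.00025 and 6.13e-06). At the last step, where ABCB4 rose, TAP1 did not pass (0.097 ± 0.08, adjusted p = 0.456). The rule did not name TAP1 by its steps, and other kept members passed there too. Of 8 kept, 4 were lower at the Dox250 step and 1 (ABCB1) higher, beside 8.25% and 5.21% of all genes. At the Dox500 step 3 were lower and 1 (ABCB1) higher, beside 6.81% and 7.86%. At the Dox750 step 3 were higher and 0 lower, beside 3.98% and 4.03%. These counts are not read as a result about the subfamily.

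**Figure D5:**
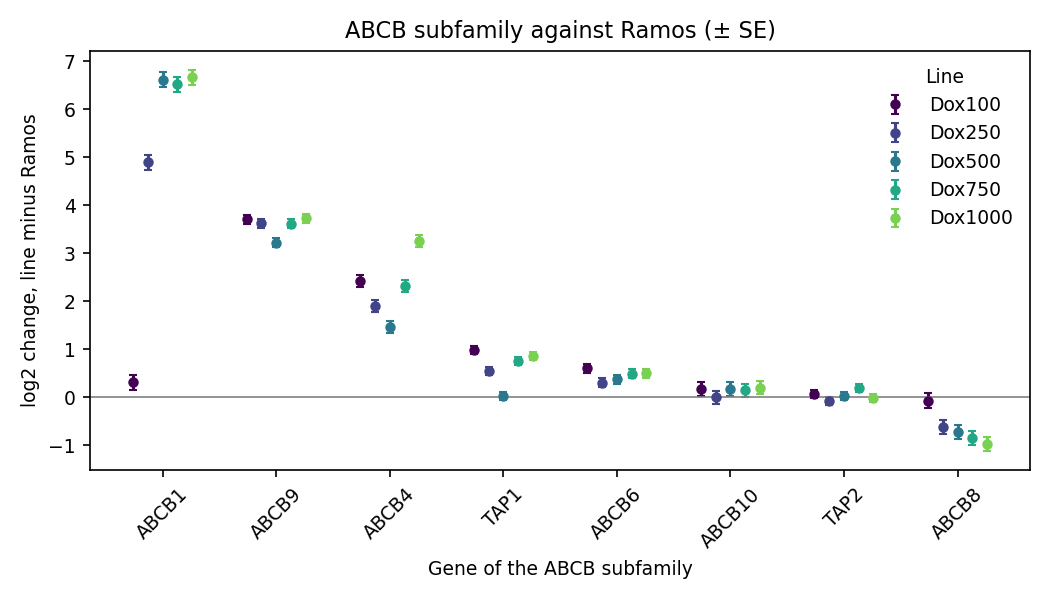
Fitted log2 change ± SE against Ramos of the 8 kept genes of the ABCB subfamily in the 5 resistant lines, n = 4 arrays a line. ABCB9 stands at 3.71 in Dox100, and the fitted ABCB1 value is 0.31 there and 4.89 in Dox250, against a Ramos level that was not detected.

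Known transcriptional regulators of ABCB1 were read beside it. Of 35 measured here 29 were kept, and in Dox1000 against Ramos 8 were higher and 11 lower, beside 27.6% and 29.7% of all genes, with a median of 0.021. CEBPB, a leucine zipper factor, was 1.34 ± 0.08 higher and FOXO3, a forkhead factor, 1.27 ± 0.13. ZNF263, a zinc finger protein, was 0.67 ± 0.11 higher, and EP300, a histone acetyltransferase, fell by 1.31 ± 0.11. At the step of Dox250 against Dox100, where ABCB1 came on, 2 of the 29 passed, both higher, where 5.21% of genes were higher and 8.25% lower. They were CTNNB1, the beta-catenin gene (0.81 ± 0.16, adjusted p = 0.00136), named after its value was seen, and CEBPB (0.29 ± 0.08, adjusted p = 0.0169). At the Dox500 step 1 was higher, SP3 (0.32 ± 0.09), and 2 were lower, KLF6 (-0.32 ± 0.06) and CTNNB1 (-0.50 ± 0.16, limma adjusted p = 0.0398), all named after their values were seen, where 7.86% of genes were higher and 6.81% lower. The factors whose letters stand in the downstream window are given although the rule did not name them. EGR1 was 0.50 ± 0.12 higher in Dox1000 than in Ramos (adjusted p = 0.00192), and of the NF-Y subunits NFYB fell by 0.32 ± 0.12 (adjusted p = 0.025) while NFYA and NFYC did not pass (0.18 and 0.042). JUN and FOS, of the AP-1 factor, were detected on none of the 24 arrays.

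Genes that handle the P-glycoprotein protein passed in both directions. Of 18 measured 15 were kept, and in Dox1000 against Ramos 3 were higher and 6 lower, beside 27.6% and 29.7% of all genes, with a median of -0.18 against -0.016. RAB4A, a GTPase of endosome recycling, fell by 1.61 ± 0.16 (detected on 1 of 4 Dox1000 arrays). The cochaperone DNAJB6 fell by 1.37 ± 0.11 and the chaperone HSP90AB1 fell by 0.65 ± 0.06. PIM1, a kinase known to protect P-glycoprotein from degradation, rose by 0.62 ± 0.10. The other two that rose, named after their values were seen, were RAB11A (0.43 ± 0.06), a GTPase of recycling endosomes, and EZR (0.26 ± 0.09), which ties membrane proteins to actin. Of flippases, scramblases and genes of bile secretion that give the setting of ABCB4, 6 of 11 measured were kept, and in Dox1000 4 were higher and 1 lower, beside 27.6% and 29.7% of all genes, with a median of 0.38 against -0.016. TMEM30A, the partner subunit of the P4 flippases, was 0.70 ± 0.11 higher, ANO6, a scramblase, 0.42 ± 0.09 and the lipid exporter ABCA1 0.42 ± 0.09, and XKR8, another scramblase, fell by 0.67 ± 0.20. The fourth that was higher was ABCA7 (0.34 ± 0.14), also named after its value was seen. ATP8B1, ABCG5 and ABCG8 of the bile canaliculus were detected on none of the 24 arrays.

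Genes next to ABCB1 and ABCB4 were read at the same steps. Of 12 neighbours on 7q21 8 were kept, and at the Dox250 step, where ABCB1 came on, DMTF1 passed (0.34 ± 0.10, limma adjusted p = 0.0327), 1 of the 8 where 5.21% of genes were higher and 8.25% lower. At the Dox500 step, where ABCB1 gained again, 3 of the 8 passed, all higher, where 7.86% of genes were higher and 6.81% lower. Those 3, of which CROT and TMEM243 were named after their values were seen, were TMEM243 (0.86 ± 0.11), ELAPOR2 (0.83 ± 0.06) and CROT (0.75 ± 0.11), with limma adjusted p of at most 5.81e-05. In Dox100 against Ramos, where ABCB4 was higher, 0 of the 8 were higher and 4 lower, beside 24.1% and 22.2% of all genes. The median there was -0.31. For Dox750 against Dox500 0 of the 8 passed, where 3.98% of genes were higher and 4.03% lower. For Dox1000 against Dox750 2 were higher and 0 lower, beside 12.1% and 11.7% of all genes. In Dox1000 against Ramos 4 were higher and 1 lower, beside 27.6% and 29.7% of all genes, with a median over the 8 of 0.11. ELAPOR2 stood at 1.30 ± 0.06, TP53TG1, detected on 2 of 4 Ramos arrays, at 0.85 ± 0.28, DMTF1 at 0.55 ± 0.10 and TMEM243 at 0.34 ± 0.11, and SLC25A40, a mitochondrial carrier, was lower at -0.58 ± 0.13. RUNDC3B, which overlaps ABCB1, was detected on none of the 24 arrays.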

How the data were processed

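Total RNA of 24 cultures (4 for each of 6 lines, grouped by sample title) was biotin-labelled and put on Illumina bead arrays, per the labels' protocols. The authors deposited 1 intensity a probe and array, with no normalization or background subtraction, per the file headers, and next to each intensity a detection p-value. A further deposited table holds log2 values, which equal log2 of the quantile-normalized intensities to within 0.00505. Only lumi is listed per the submitters' processing notes, without version. The scanner software is not given in the sources used here.

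Intensities were corrected by normexp (nec of limma 3.58.1 in R 4.3.3, with negative-control parameters estimated through the detection p-values, offset 16), quantile-normalized and log2-transformed. The filter asked for a detection p under 0.01 on 3 or more of the 4 arrays in any line, and 15765 of 47323 probes (33.3%) met it. One limma model with 6 line means over 24 arrays gave 15 pairs of lines, 9 of them main comparisons, with Benjamini-Hochberg adjustment over the kept probes. For genes with several probes the brightest was read (9533 genes). Names were matched through Entrez identifiers for 30074 of the 30113 probes with 1 symbol, 17202 probes had none and 8 several. An "at least" fold takes, for each undetected array, whichever was higher of the dimmest detected signal and the probe's own value, and sets their mean against the brighter line.

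Members, lists and rules were chosen with earlier results of these data known. Genes named were the members, the 5 of highest r for each target, and up to 4 of each of 5 lists with the largest passing change in Dox1000 against Ramos, unless said otherwise. In simulated data with 15765 probes for Dox1000 against Ramos, the fit recovered 40.9% of probes with a planted log2 change of 0.5, 97.0% at 1 and 100% at 2. Changes were planted in 66, 67 and 67 probes, and 15565 had none. In the data 53.2% of probes passed, so these shares do not give the sensitivity of the real comparison. Replicate numbers did not pair the arrays. Alternatives were other background, scaling, filter, probe and model settings, the deposited log2 values, the replicate block and each array left out. The number of arrays limits the precision.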

Additional observations from a re-analysis of the deposited data

Results flagged for a closer look

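Among 36 sets of 4 arrays tested (3 probes, 6 lines, signals and normalized values) 1 held an array far from the others by Dixon's criterion, where chance gives about 1 in 20. It was Dox100 replicate 3 for the brighter ABCB1 probe, at a normalized log2 signal of 5.72 where the other 3 Dox100 arrays read 4.73 to 4.84. It was also the one Dox100 array on which ABCB1 was detected (189.1 units). The other ABCB1 probe read 143.1 units on that array and was not detected.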

How the results depend on the processing

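Of 54 results on the members (45 changes of 3 probes between pairs of lines and 9 differences between ABCB1 and ABCB4), 45 kept their direction and their side of the threshold under every alternative that gave a value. Many of the 54 set ABCB1 against Ramos or Dox100, where its signals were near background. Their calls are not read, so the count of 45 is not a measure of stability. In no alternative did the rise of ABCB1 in Dox500 against Dox250 lose its call. For ABCB4 in Dox100 against Ramos only the size is given, as a description. It ran from 2.30 to 2.49 with 1 array left out and from 1.11 to 2.44 under the other alternatives. The exceptions among the 54 follow. For Dox100 against Ramos the brighter ABCB1 probe ran from 0.077 to 0.43 with 1 array left out and the other probe from -0.053 to 0.031, and reading the other probe turned the sign to -0.014. With 1 array left out, Dox1000 minus Dox500 ran from -0.0032 to 0.091 by the brighter ABCB1 probe and from -0.048 to 0.11 by the other. By the other probe Dox750 minus Dox500 ran from -0.12 to 0.036 and Dox1000 minus Dox750 from -0.010 to 0.13. ABCB4 in Dox750 minus Dox100 ran from -0.19 to 0.0019. ABCB4 in Dox500 minus Dox250 ran from -0.47 to -0.35 with 1 array left out, and at -0.43 lost its call with no filter (adjusted p = 0.0751) and at an adjusted p under 0.01. ABCB4 in Dox750 minus Dox250 ran from 0.33 to 0.50, and lost its call with median scaling (0.41, adjusted p = 0.0642), no filter (0.41, adjusted p = 0.132), the replicate block (0.41, adjusted p = 0.0572), only the 8 arrays compared (0.41, adjusted p = 0.0676) and an adjusted p under 0.01 (0.41). The cause was not tested.

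The replicate block changed no other call on the members. Deviations of arrays with the same number had a mean r of -0.0075 over 60 pairs, and 4 of 24 arrays correlated best with their own number. With no filter, or under an adjusted p of 0.01, fewer probes passed than the main counts: 1221 and 868 against 1945 for Dox250 minus Dox100, 1221 and 952 against 2138 for Dox500 minus Dox250, 611 and 444 against 1086 for Dox750 minus Dox250, and 602 and 394 against 1189 for Dox750 minus Dox500. Under an adjusted p of 0.01 alone, 1780 passed against 3123 for Dox500 minus Dox100, 1517 against 2793 for Dox750 minus Dox100, 2204 against 3924 for Dox1000 minus Dox250, 3041 against 4955 for Dox1000 minus Dox500 and 1916 against 3337 for Dox1000 minus Dox750. Of the 5 genes most like ABCB1, 3 stayed among the first 5 on the deposited log2 values or without background correction and 2 by the root mean square difference, and the same counts held for ABCB4. Of the 7q21 neighbours 2 in place of 1 were lower in Dox1000 than in Ramos on the deposited values or without background correction. Between the 2 ABCB1 probes, the difference at the Dox500 step was -0.28 and turned to 0.086 on the deposited values and 0.087 without background correction. These 2 alternatives for the probe pair were added after the data were seen. Probes detected on all 24 arrays included no member, so that alternative gave no value. Dim signals of ABCB1 in Ramos and Dox100 limit every fold against them.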
